A study of Mus musculus with 10 samples.

Results

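Pulmonary surfactant is the film of lipid and protein that keeps alveoli from collapsing, and the 10 genes followed here encode its proteins and part of the machinery that processes, stores and supplies them and its lipids. They are the 4 surfactant protein genes (Sftpa1, Sftpb, Sftpc and Sftpd), the proteases that mature their products (Napsa and Ctsh), the proteins of the storage organelle's membrane (Abca3 and Lamp3), and an enzyme and a transporter of surfactant lipid and phosphate (Lpcat1 and Slc34a2). Members were taken by gene symbol from the table of read counts, where each symbol had 1 row, so they are 10 of the 39017 genes listed. All 10 had enough reads to be among the 15922 genes tested.

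The libraries came from lung tumours of C57BL/6 mice that carried, in both groups, floxed p53 among other alleles (KP). The KPG1 mice carried floxed Glut1 (gene Slc2a1) on both chromosomes as well, and their 5 libraries are labelled Glut1KO. The 5 control libraries are labelled as heterozygous for a floxed allele, whereas the description of the series calls them wild type for Glut1. Per the methods of the study, both wild-type and heterozygous mice served as controls. An adenovirus with Cre under the CC10 promoter (Ad5CC10-Cre), which is active in the secretory club cells of the airway, was given through the trachea to every mouse. Macrodissected tumours were taken 20 weeks and 1 day later, dissociated and cleared of CD45-positive immune cells on magnetic beads, so the RNA is that of all remaining cells, with no selection for tumour cells. All controls were labelled male, whereas Glut1KO replicates 1 to 3 were female and replicates 4 and 5 male. Names of the deposited columns end in a number that several libraries share (2 numbers among the controls, 4 among the Glut1KO libraries, of which replicates 4 and 5 share 1). What it stands for is not stated, and libraries that share it may not be independent.

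Alveolar type 2 (AT2) cells are a source of surfactant proteins, and which cells of these tumours made their RNA was not tested. SP-B and SP-C are small hydrophobic peptides, cut from larger precursors on their way to the lamellar body, where they are packed with phospholipid before secretion. SP-A and SP-D are water-soluble collectins that bind microbes. Lung tumours of the KP model are adenocarcinomas, a type of tumour that often keeps genes of the AT2 cell switched on.

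Depth and labels were examined before the members. Totals lay between 35.3 and 49.8 M counts (M, mega), with the highest in control replicate 2. Slc2a1, the deleted gene, stood at 73.2 to 118 CPM (counts per M, scaled between libraries by TMM) in controls. It was at 60.3, 42.5 and 34.6 CPM in Glut1KO replicates 1 to 3, and at 92.4 and 103 CPM in replicates 4 and 5, within the range of the controls. Replicates 4 and 5 therefore showed no lower Slc2a1 than controls, although counts over a whole gene need not fall when some exons are cut out. Sex, the shared number and the Slc2a1 level cannot be told apart among the Glut1KO libraries. The pan-leukocyte gene Ptprc, which encodes CD45, was at 2.30 to 3.26 CPM in controls and 5.05 to 10.1 CPM in Glut1KO libraries. The club cell marker Scgb1a1, which encodes CC10, ran from 703 to 8732 CPM.

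By mean CPM over the 10 libraries, all 10 surfactant genes were among the 80 most abundant of the 15922 genes tested. Together the 10 genes took 5.56 ± 1.60% of all counts in controls (SD, n = 5) and 6.23 ± 0.76% in Glut1KO libraries (SD, n = 5), a difference within the spread of the libraries (exact permutation test, 2-sided, p = 0.452). The lowest share was 3.18%, in control replicate 2, and the highest 7.53%, in control replicate 3. In RNA from whole tumour fractions, fewer cells that make surfactant and less of this RNA per cell cannot be told apart. Sftpb and Sftpc ranked between 1 and 3 among all genes by counts in each of the 10 libraries, Sftpa1 between 3 and 12, and Slc34a2 between 5 and 10. The widest ranges were those of Napsa, from 22 to 2880, and Lamp3, from 28 to 460.

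**Figure D1:**
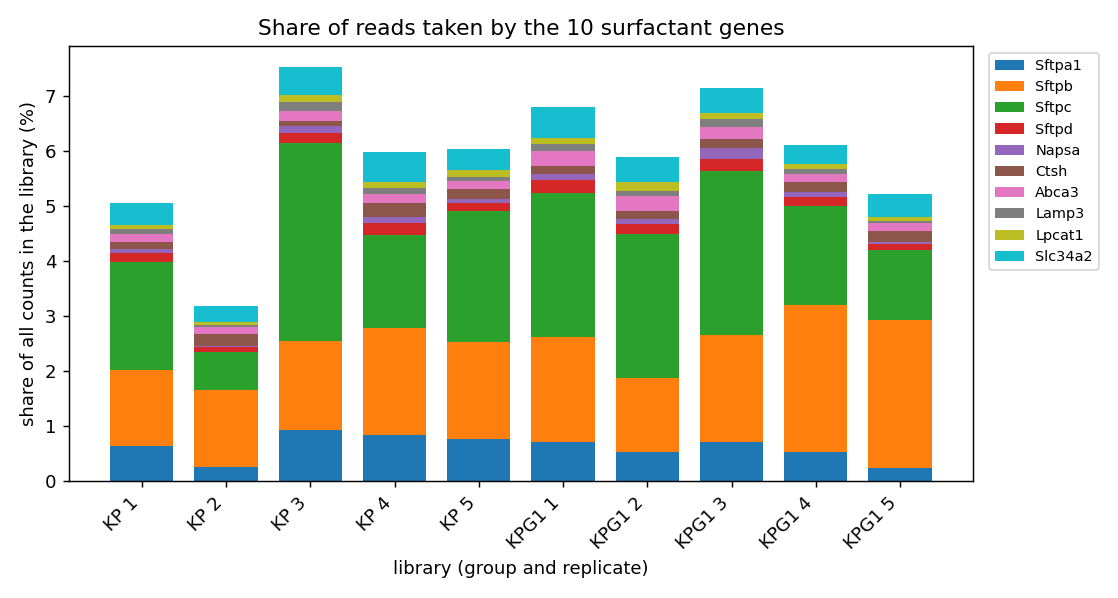
Stacked bars give the percentage of all counts in a library taken by each of the 10 surfactant genes, with KP controls and KPG1 (Glut1KO) libraries by replicate. Sftpb and Sftpc fill most of each bar, and KP control replicate 2 has the lowest bar, at 3.18%.

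Per kilobase of exon, which allows genes to be ranked against each other, the order was the same at the top in both groups. Sftpc stood at 20127 ± 10523 CPM per kb in controls and 21778 ± 6335 CPM per kb in Glut1KO libraries (SD, n = 5 each), and it ranked 1 among the 15761 tested genes with a known length. Sftpb followed at 8244 ± 1389 and 10889 ± 3361 CPM per kb, although it exceeded Sftpc in control replicate 2 and Glut1KO replicate 5, so that these neighbours overlapped. Sftpa1 came next at 2422 ± 961 and 1900 ± 654 CPM per kb, below Sftpb with no overlap between their libraries in either group. It was above Slc34a2 in every library, although the ranges of the pair over libraries overlapped in both groups. Slc34a2 (862 ± 244 and 895 ± 137) and Sftpd (672 ± 202 and 769 ± 165 CPM per kb) overlapped each other. The remaining genes were within overlapping ranges from each neighbour to the next, with means of 163 to 386 CPM per kb in controls and 220 to 387 CPM per kb in Glut1KO libraries. Abca3 had the lowest mean per kb in both groups. With the length of the longest coding transcript in place of all exons, ranks 1 to 3 were unchanged, but the order below them depended on the length. Ctsh then stood at 1074 CPM per kb in controls, above Slc34a2 at 1034, and at 1051 CPM per kb in Glut1KO libraries. Sftpd was at 1274 and 1458 CPM per kb, above Slc34a2 in both groups, and Napsa at 508 and 659 CPM per kb. Abca3 rose above Lpcat1 and Lamp3 in the Glut1KO libraries.

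The promoters of the members were searched for letters of 2 kinds of site. TCAAG is found in sites of NKX2-1, the homeodomain factor that switches on surfactant genes in the lung, and TGTTTNC covers the letters of forkhead sites, as of the FOXA factors. The window ran from 250 to 11 bases before the annotated start in RefSeq (GRCm38.p6), and 6 of the 10 members had an entry (Sftpa1, Sftpb, Abca3, Slc34a2, Lpcat1 and Lamp3). On either strand TCAAG occurred in 2 of the 6 and TGTTTNC in 2 of the 6, against 35% and 17.3% of 32851 promoters in windows of the same length. Only Sftpb held both, as did 6.78% of all promoters. The 3 windows with a match are given from 5′ to 3′ on the strand of the gene, with matches in capitals, to show which letters matched and where.
Sftpa1, chr14:41131538-41131777, plus strand: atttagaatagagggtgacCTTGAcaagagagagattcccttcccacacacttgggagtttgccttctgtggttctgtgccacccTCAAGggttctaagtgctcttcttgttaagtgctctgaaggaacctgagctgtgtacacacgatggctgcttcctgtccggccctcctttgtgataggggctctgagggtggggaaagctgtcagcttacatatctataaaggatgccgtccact
Sftpb, chr6:72304360-72304599, plus strand: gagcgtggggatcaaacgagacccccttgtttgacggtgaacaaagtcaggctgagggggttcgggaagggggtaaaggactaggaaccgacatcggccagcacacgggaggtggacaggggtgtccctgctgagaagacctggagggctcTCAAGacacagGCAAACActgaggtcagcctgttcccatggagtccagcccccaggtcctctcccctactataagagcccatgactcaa
Lamp3, chr16:19706376-19706615, minus strand: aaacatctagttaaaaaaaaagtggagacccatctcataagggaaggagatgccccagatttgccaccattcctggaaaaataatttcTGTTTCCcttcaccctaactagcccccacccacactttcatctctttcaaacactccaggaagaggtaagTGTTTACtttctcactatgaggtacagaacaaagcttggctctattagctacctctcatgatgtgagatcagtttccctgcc

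In the window of Sftpa1 1 match to TCAAG began 231 bases before the start, on the opposite strand and so printed as CTTGA, and 1 began 165 bases before it on the strand of the gene. Sftpb had TCAAG at 99 bases and a forkhead-type match on the opposite strand at 88 bases before the start. Lamp3 had TGTTTNC at 162 and 92 bases. These are matches of letters, and no binding was measured.

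No member passed a test of the groups across all genes. By limma, a linear model of log2 counts with the precision weights of voom, 0 of the 10 members passed an adjusted p of 0.05, and 0% of all genes tested did. At an unadjusted p under 0.05 the count was 0 members, against 1223 genes (7.68% of those tested). The edgeR quasi-likelihood test called 0 genes, and DESeq2 called 215 genes (1.35%), of which 0 were members. The values of the groups overlapped for all 10 members, and they failed to overlap for 1.85% of genes tested (0.798% with the Glut1KO libraries higher and 1.06% with them lower). Fitted means were higher in Glut1KO libraries for 9 members and lower for Sftpa1, with a median log2 fold change of 0.21, where 49.3% of all genes had a value above 0 and the median over all of them was -0.0049. That direction rested on control replicate 2, without which the median was -0.06. It was -0.08 with sex as a covariate or in male libraries only. Ctsh, the member nearest 0, was higher by limma and lower by edgeR and DESeq2.

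**Figure D2:**
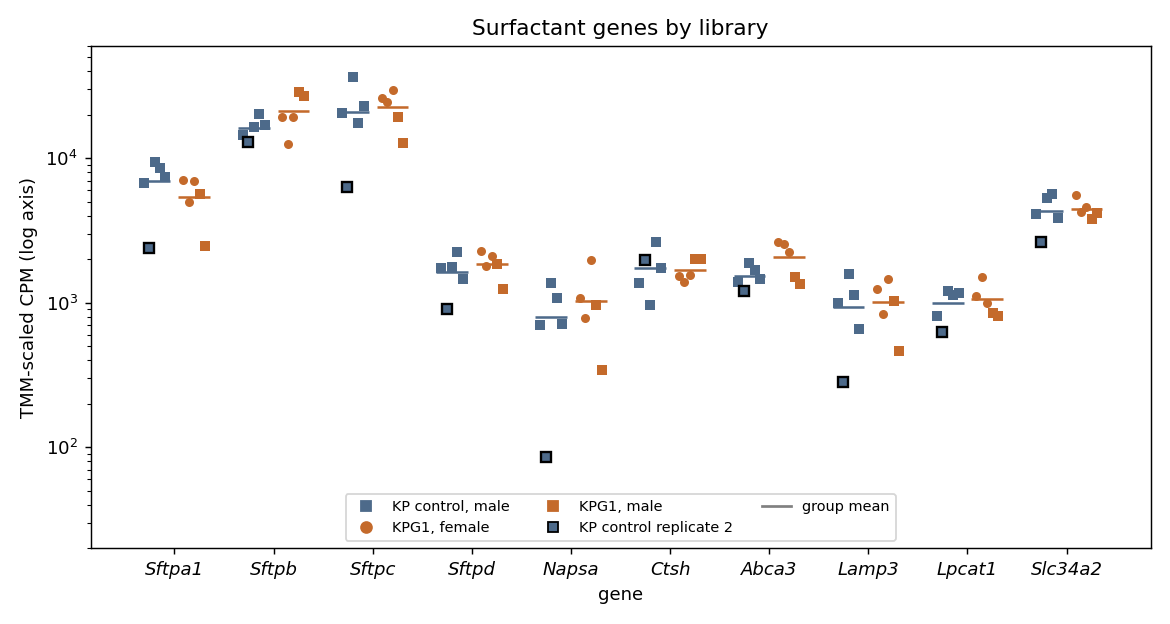
Each point is 1 library, with its TMM-scaled CPM on a log axis; squares are male and circles female, and horizontal lines are group means. The groups overlap for every gene, and KP control replicate 2 (outlined) is the lowest point for 8 of the 10 genes.

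Of the collectins, Sftpa1 (ENSMUSG00000021789; chromosome 14, 41131782 to 41136452, plus strand, GRCm38) encodes SP-A. In control replicates 1 to 5 it stood at 6712, 2392, 9475, 8619 and 7443 CPM, and in Glut1KO replicates 1 to 5 at 7034, 5006, 6971, 5697 and 2468 CPM. Control replicate 2 and Glut1KO replicate 5 were the low libraries, and the remaining 8 ran from 5006 to 9475 CPM. The log2 fold change was -0.31 ± 0.39 (SE; limma adjusted p = 0.870), and no Glut1KO library lay below every control. It was -0.64 without control replicate 2 (exact permutation p = 0.0556), -0.05 without Glut1KO replicate 5 and -0.74 with sex as a covariate. Sftpd (ENSMUSG00000021795; chromosome 14, 41172214 to 41185149, minus strand) lies beside it and encodes SP-D. Its levels in controls were 1730, 911, 1777, 2244 and 1461 CPM, and those in Glut1KO libraries 2287, 1786, 2118, 1864 and 1243 CPM. Again the same pair of libraries was lowest, and the log2 fold change was 0.22 ± 0.24 (SE; limma adjusted p = 0.854). It was 0.03 without control replicate 2, 0.36 without Glut1KO replicate 5 and -0.03 with sex as a covariate.

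Of the hydrophobic peptides, Sftpc (ENSMUSG00000022097; chromosome 14, 70520949 to 70524081, minus strand) encodes SP-C, which is made in no other cell type of the normal lung than the AT2 cell. Controls stood at 20587, 6329, 36607, 17648 and 22884 CPM, and Glut1KO libraries at 26168, 24566, 29646, 19356 and 12857 CPM. The highest and the lowest library were both controls, 5.78-fold apart, and all Glut1KO libraries lay between them. The log2 fold change was 0.25 ± 0.42 (SE; limma adjusted p = 0.905), against -0.12 without control replicate 2 and 0.50 without control replicate 3.

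Sftpb (ENSMUSG00000056370; chromosome 6, 72304610 to 72314371, plus strand) encodes SP-B, the surfactant protein without which a newborn cannot breathe. With Abca3 it varied least among the controls, at 14547, 12956, 16362, 20178 and 17079 CPM. In Glut1KO replicates 1 to 3, the female libraries, it was at 19205, 12638 and 19300 CPM, and in the male replicates 4 and 5 at 28951 and 27055 CPM, above every control. Over all libraries the log2 fold change was 0.36 ± 0.24 (SE; limma adjusted p = 0.751; exact permutation p = 0.190). Among male libraries only, limma gave 0.80 ± 0.21 (SE) with an adjusted p of 0.402. For these libraries the exact permutation p was 0.0476, the smallest that 5 against 2 libraries allow. These 2 Glut1KO libraries share 1 number in their column names, and the 5 controls carry 2, so the libraries may not be independent. Slc2a1 in Glut1KO replicates 4 and 5 was within the range of the controls. With 1 library left out, the log2 fold change of Sftpb ran from 0.23 (without Glut1KO replicate 4) to 0.53 (without Glut1KO replicate 2, the lowest of all libraries), and the exact permutation p from 0.0317 (without Glut1KO replicate 2) to 0.365 (without Glut1KO replicate 4). For the female Glut1KO libraries against the controls the log2 fold change was 0.06 ± 0.20 (SE; limma adjusted p = 0.912).

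The proteases came next. Napsa (ENSMUSG00000002204; chromosome 7, 44572380 to 44586862, plus strand) encodes napsin A, an aspartic protease that acts on the SP-B precursor and a marker of lung adenocarcinoma. It stood at 697, 85.6, 1378, 1081 and 718 CPM in controls and at 1080, 782, 1978, 960 and 344 CPM in Glut1KO libraries. Napsa was the most variable member, 23.1-fold between its highest and lowest library, and the low value in control replicate 2 still rested on 4609 counts. Its SD on the log2 scale in controls was 1.59, larger than that of 96.1% of genes tested. The log2 fold change of 0.60 ± 0.70 (SE; limma adjusted p = 0.861) had the widest interval of the 10, from a fold of 0.516 to 4.43. Without control replicate 2 it was -0.06, and without Glut1KO replicate 5 it was 0.94.

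Ctsh (ENSMUSG00000032359; chromosome 9, 90054152 to 90076089, plus strand) encodes cathepsin H, a cysteine protease that takes part in cutting both SP-B and SP-C. Its levels were 1372, 1980, 966, 2633 and 1735 CPM in controls and 1529, 1400, 1549, 2022 and 1995 CPM in Glut1KO libraries. Here control replicate 2 was not low, control replicate 3 was lowest, and all Glut1KO libraries lay within the range of the controls. The log2 fold change was 0.04 ± 0.25 (SE; limma adjusted p = 0.982), and it ran from -0.16 without control replicate 3 to 0.21 without control replicate 4.

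Of the lamellar body membrane proteins, Abca3 (ENSMUSG00000024130; chromosome 17, 24351950 to 24410201, plus strand) encodes the lipid pump that fills the lamellar body. Controls stood at 1398, 1211, 1889, 1688 and 1466 CPM. The female Glut1KO replicates 1 to 3 were at 2646, 2567 and 2258 CPM, above every control, and the male replicates 4 and 5 at 1510 and 1353 CPM, within the range of the controls. Slc2a1 stood at 60.3, 42.5 and 34.6 CPM in replicates 1 to 3 and at 92.4 and 103 CPM in replicates 4 and 5. Sex, the shared number and the Slc2a1 level cannot be told apart in this split. The log2 fold change of Abca3 over all libraries was 0.39 ± 0.21 (SE; limma adjusted p = 0.711; exact permutation p = 0.135), with a 95% interval of 0.944- to 1.82-fold. For the female Glut1KO libraries against the controls, which were all male, it was 0.72 ± 0.16 (SE; limma adjusted p = 0.198), the smallest adjusted p of any member in any of the fits run. In male libraries only it was -0.08. With 1 library left out, the exact permutation p ran from 0.0476, without Glut1KO replicate 5, the lowest of its group, to 0.262. Abca3 and Sftpb were thus highest in different Glut1KO libraries. An antisense gene, D330041H03Rik, shares 914 exon bases with Abca3, and it drew 537 counts over all libraries against 750338 for Abca3. Another, Gm15396, shares 502 exon bases with Napsa. The count table lists this symbol under another Ensembl identifier, whose exons are not given in the annotation used here, with 2189 counts over all libraries against 372025 for Napsa. Strand use in the counting was not stated.

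Lamp3 (ENSMUSG00000041247; chromosome 16, 19653378 to 19706375, minus strand) encodes DC-LAMP, a lysosome-type membrane protein that marks the lamellar body and is also known from mature dendritic cells. It was at 1005, 283, 1582, 1141 and 658 CPM in controls and at 1248, 841, 1462, 1036 and 462 CPM in Glut1KO libraries. The low libraries were again control replicate 2 and Glut1KO replicate 5. The log2 fold change was 0.21 ± 0.45 (SE; limma adjusted p = 0.928), against -0.15 without control replicate 2 and 0.47 without Glut1KO replicate 5. The 10 dendritic cell markers examined summed to 31.2 to 94.9 CPM in controls and 35.4 to 48.6 CPM in Glut1KO libraries, below the level of Lamp3 alone in every library. Relb made up 31.8% to 75.1% of these sums, 7 of the 10 markers had a mean under 1 CPM, and 4 were at 0 counts in at least 1 library. Whether dendritic cells contributed to the level of Lamp3 was not tested.

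The lipid enzyme and the transporter had fold changes near 1. Lpcat1 (ENSMUSG00000021608; chromosome 13, 73467197 to 73516422, plus strand) encodes the acyltransferase that remodels phosphatidylcholine to the saturated form of surfactant. It ranged from 626 to 1199 CPM in controls and from 812 to 1513 CPM in Glut1KO libraries, with a log2 fold change of 0.10 ± 0.23 (SE; limma adjusted p = 0.936). Slc34a2 (ENSMUSG00000029188; chromosome 5, 53038081 to 53071664, plus strand) encodes the sodium-phosphate cotransporter of the AT2 cell's apical membrane, which takes up phosphate released from phospholipid. It ranged from 2631 to 5683 CPM in controls and from 3787 to 5594 CPM in Glut1KO libraries, with a log2 fold change of 0.08 ± 0.21 (SE; limma adjusted p = 0.942). In this fit, with the group as its only term, their 95% intervals were 0.758- to 1.51-fold for Lpcat1 and 0.767- to 1.46-fold for Slc34a2. With sex as a covariate the log2 fold changes were -0.21 ± 0.26 for Lpcat1 and -0.08 ± 0.27 for Slc34a2 (SE), and without control replicate 2 they were -0.05 and -0.08.

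**Figure D3:**
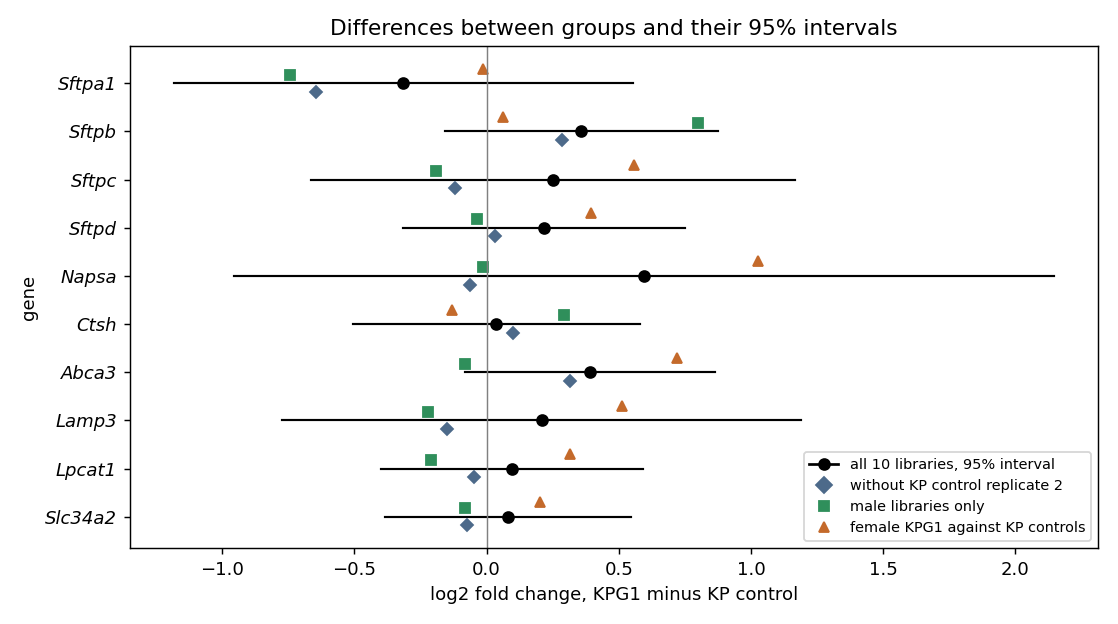
Log2 fold change of each gene, KPG1 minus KP control, from limma (black points, with 95% intervals), and the same value without KP control replicate 2, in male libraries only, and for female KPG1 libraries against the controls. All 10 intervals include 0, and the male and female estimates lie farthest apart for Napsa, Abca3, Lamp3, Sftpc, Sftpb and Sftpa1. The female KPG1 libraries are also those with lower Slc2a1.

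Among 8 members, all but Sftpb and Ctsh, each of the 28 pairs had a positive Pearson r over the 10 libraries (0.468 to 0.954). Sftpb and Ctsh were set apart by their values in these same correlations, so the split carries no test. In control replicate 2 the level was the lowest of all libraries for these 8 members, where 15.3% of all genes tested were lowest there. Glut1KO replicate 5 was next to lowest for 7 members and lowest for 0, where 11.7% of all genes tested were lowest there. The share of all genes that were next to lowest there was not measured. Over the 45 pairs of members, the median Pearson r of log2 CPM over the 10 libraries was 0.646, and 0.673 for deviations from the group means. By permutation, with Benjamini-Hochberg adjustment over the 45 pairs, 19 pairs passed an adjusted p of 0.05, all of them among the 28 pairs that involve neither Sftpb nor Ctsh. The share of pairs of other genes that would pass over the same libraries was not measured. By Spearman's rho 1 pair of members passed. The relations leaned on few libraries, since the median r was 0.392 without control replicate 2, and 0.386 with the 2 libraries farthest from the median of a pair's gene left out. With those 2 left out, some of the 28 pairs turned negative, such as Sftpa1 and Abca3 (r = -0.224).

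**Figure D4:**
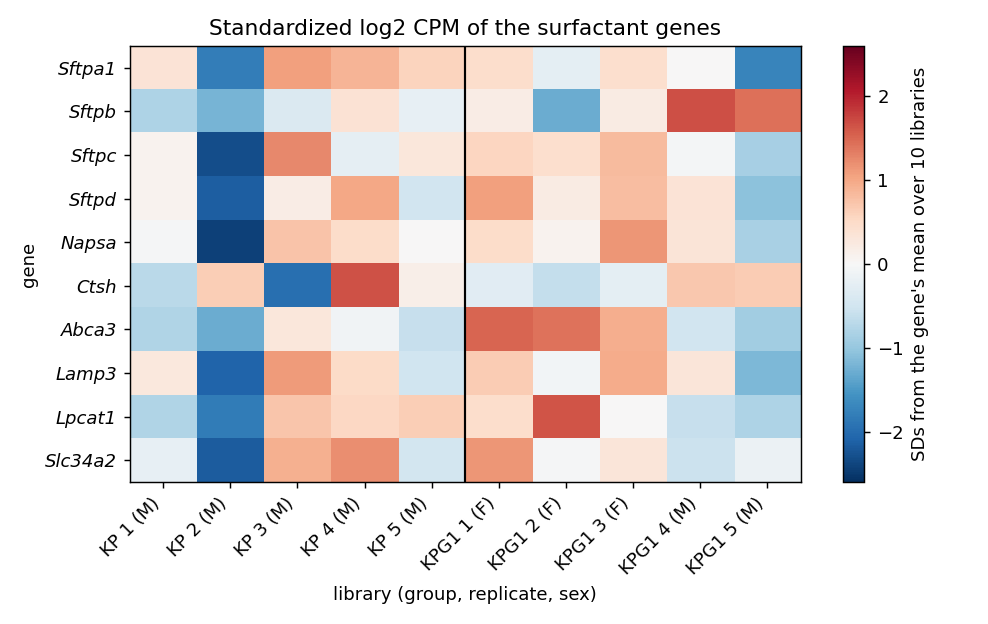
Rows are genes and columns libraries (group, replicate and sex); colour gives the log2 CPM in SDs from the gene's mean over the 10 libraries. The column of KP control replicate 2 is blue for 9 of the 10 genes, and Sftpb is highest in the male KPG1 replicates 4 and 5, whereas Abca3 is highest in the female replicates 1 to 3. The female replicates are also those with lower Slc2a1.

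Sftpa1 and Lamp3, whose promoters were shown above with different matches, had r = 0.879 and rho = 0.733 (permutation adjusted p = 0.0181 and 0.0713), and r = 0.464 without the 2 farthest libraries. The pair with the closest relation was Napsa and Lamp3, with a Pearson r of 0.954 (permutation adjusted p = 0.00090) and a Spearman rho of 0.939 (permutation adjusted p = 0.00945) over 10 libraries. It held without the 2 farthest libraries, control replicate 2 and Glut1KO replicate 5, at an r of 0.839. Napsa also followed Sftpc (r = 0.931, rho = 0.733), and Sftpd followed Lamp3 (r = 0.922, rho = 0.758), with a permutation adjusted p of 0.0102 for each r and 0.0713 for each rho. Without their 2 farthest libraries these were r = 0.569 and r = 0.648. The pair of collectin genes, Sftpa1 and Sftpd, had an r of 0.810 (permutation adjusted p = 0.0337) and a rho of 0.503 (permutation adjusted p = 0.250). It rested on control replicate 2 and Glut1KO replicate 5, without which r was 0.126.

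Over all 10 libraries, pairs with Sftpb or Ctsh had lower r values. Pairs with Sftpb ran from -0.172 to 0.435 (median 0.164), and this rested in part on Glut1KO replicates 4 and 5, where Sftpb was highest. These were the 2 farthest libraries for 8 of its 9 pairs. Without the 2 farthest, the median over its 9 pairs was 0.443, with r = 0.713 for Slc34a2, 0.697 for Sftpd, 0.658 for Napsa and 0.624 for Lamp3, but 0.0597 for Sftpa1 (without control replicate 2 and Glut1KO replicate 5). Without control replicate 2 the median was -0.235. Pairs with Ctsh were negative with 8 of the 9 other members, down to -0.619 with Sftpc (rho = -0.721). The permutation adjusted p of that pair was 0.105 by Pearson's r and 0.0713 by Spearman's rho, and without the 2 farthest libraries r was -0.835. No pair with Sftpb or Ctsh passed the adjusted threshold. Of protease and substrate, Ctsh and Sftpb had r = 0.435 (rho = 0.673; permutation adjusted p = 0.310 and 0.0919), and Napsa and Sftpb had r = 0.269 (rho = 0.285; permutation adjusted p = 0.582 and 0.551). Whether these correlations differ from that of Napsa with Sftpc was not tested.

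**Figure D5:**
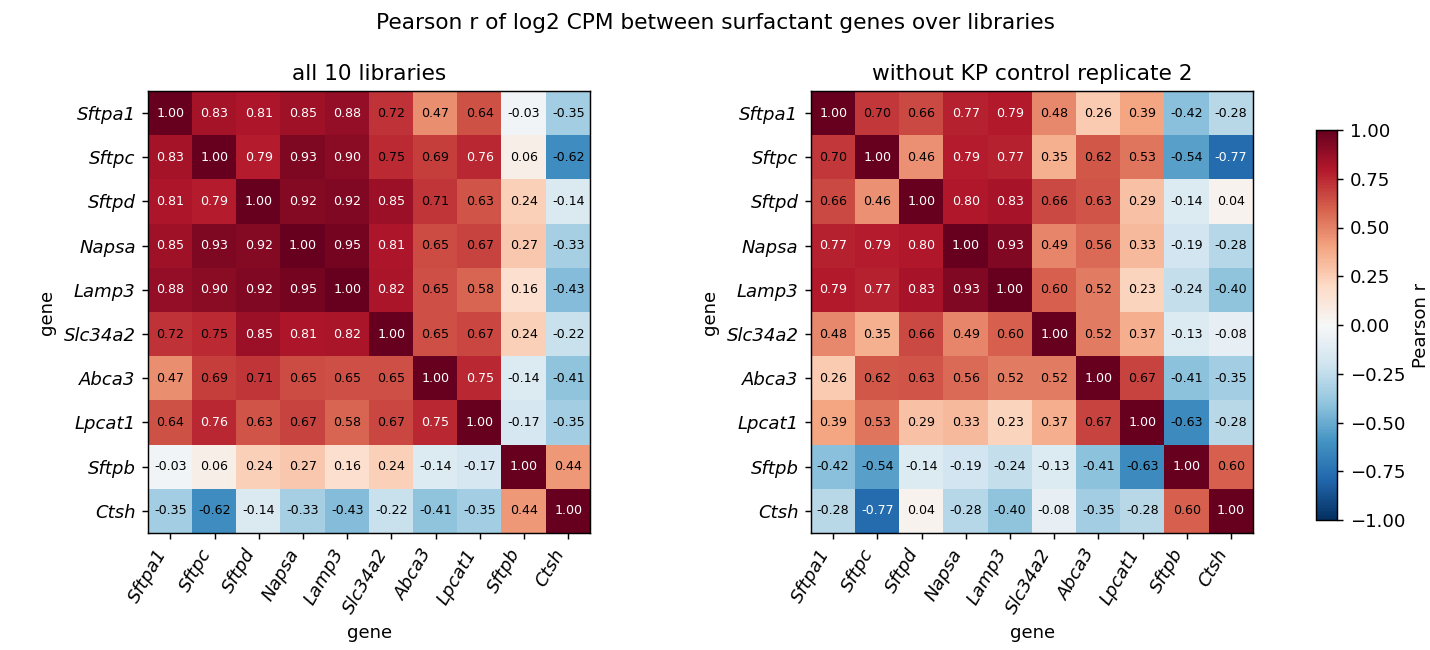
Pearson r of log2 CPM for each pair of genes over 10 libraries (left) and over the 9 without KP control replicate 2 (right). The block of 8 genes at the upper left is positive throughout in both panels, with lower values for most pairs on the right, while Sftpb and Ctsh have r values from -0.769 to 0.269 with those 8. The block was chosen from these same values.

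Many other genes of the AT2 cell were also low in control replicate 2, and fewer of them in Glut1KO replicate 5. The 20 further AT2 markers, among them the chemokine gene Cxcl15 and the lysozyme gene Lyz2, summed to between 6354 and 28958 CPM in controls and between 10715 and 24886 CPM in Glut1KO libraries, with the lowest sums in control replicate 2 and Glut1KO replicate 5. Of the 20, 14 were lowest or next to lowest in control replicate 2 (10 of them lowest, where 15.3% of all genes tested were lowest). In Glut1KO replicate 5, 10 were lowest or next to lowest, whereas 3 (Lyz1, Il33 and S100g, named after their values were seen) were highest there, and none of the 20 was at 0 in any library. Lyz2, which macrophages express too, made up 10.7% to 41.7% of this sum. Of the 12 proliferation genes, all 12 were highest in control replicate 2, which summed to 695 CPM where the other controls ran from 310.2 to 407 CPM. Of the 12 endothelial markers, 10 were lowest there, with a sum of 146 CPM. The shares of all genes tested that were highest, or next to lowest, in a library were not measured. Sums of club (2356 CPM), macrophage (1142 CPM), ciliated (8.11 CPM) and dendritic cell markers (31.2 CPM) were also the lowest of all libraries in control replicate 2. Its sum of fibroblast markers, 371 CPM, was the highest of the controls. The part of these genes' differences in the members' levels was not tested.

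Nkx2-1 itself was at 187 ± 41 CPM in controls and 235 ± 32 CPM in Glut1KO libraries (SD, n = 5 each), which gave 0.35 ± 0.16 as log2 fold change (SE; limma adjusted p = 0.667). Across the 10 libraries none of the 10 members was related to it past the threshold. The closest was Abca3, with r = 0.596 and rho = 0.527 (permutation adjusted p = 0.667 and 0.762), and r = 0.546 without the 2 farthest libraries. For Sftpa1, with TCAAG in its promoter window, r was 0.0075 (rho = -0.055). Control replicate 2, the lowest library for most members, was at 190.0 CPM of Nkx2-1, and control replicate 1 was lowest at 132 CPM.

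The wider pathway was followed with 3 lists of 75 genes, of which 74 were tested. In Glut1KO libraries 47 had higher and 27 lower fitted means. By limma 0 passed the adjusted threshold, as did 0% of all genes tested. Of 25 genes of surfactant trafficking, secretion and clearance, 18 were higher and 7 lower (median log2 fold change 0.11). By unadjusted p the leading ones were Lipa, the lysosomal acid lipase, at 113 ± 22 CPM in controls and 155 ± 35 CPM in Glut1KO libraries (SD, n = 5 each; log2 fold change 0.44; limma adjusted p = 0.612), and Ctsl, the lysosomal cathepsin L, at 306 ± 44 and 231 ± 68 CPM (-0.44; adjusted p = 0.644). Of 19 tested transcription factors of surfactant genes, 11 were higher and 8 lower (median 0.04). Nr3c1, the glucocorticoid receptor, was at 115 ± 4.2 and 165 ± 44 CPM (0.47; limma adjusted p = 0.566). Cebpa, a factor of AT2 cell maturation, was at 315 ± 39 and 390 ± 54 CPM (0.31; limma adjusted p = 0.616). Of 30 genes of surfactant phospholipid synthesis, 18 were higher and 12 lower (median 0.11), led by Lpcat3, another lysophospholipid acyltransferase, at 132 ± 28 and 178 ± 26 CPM (0.45; limma adjusted p = 0.554), and Chkb, choline kinase beta, at 48.5 ± 4.0 and 41.6 ± 2.1 CPM (-0.22; limma adjusted p = 0.644).

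The genes whose levels ran most like those of the members were sought among 13848 others with a mean of at least 1 CPM, by Pearson r with the mean standardized log2 CPM of the members over the 10 libraries. The 5 highest were Uba7 (r = 0.957), Vamp2 (0.950), Vrk3 (0.937), Cd74 (0.936) and Gm12216 (0.936). They were chosen for this likeness and carry no test. Cd74, the invariant chain of class II antigen presentation, which AT2 cells express and which is also among the 20 AT2 markers, had a level of 1586 ± 873 CPM in controls and 2175 ± 912 CPM in Glut1KO libraries (SD, n = 5 each). Without control replicate 2, r was 0.870 for Uba7, 0.825 for Vamp2, 0.876 for Vrk3, 0.905 for Cd74 and 0.831 for Gm12216, which ranked them 14, 59, 8, 3 and 47 of the 13848, so that 4 of the 5 were no longer among the 5 highest.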

How the data were processed

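Polyadenylated RNA of 10 tumour fractions, 5 control and 5 Glut1KO, was sequenced from stranded libraries. Before deposition the authors trimmed adapters with Cutadapt and aligned reads to mm10 with HISAT2, and the submitters' processing notes name featureCounts 1.4.4. Strand setting and annotation release are not given in the sources used here. The deposited values are raw read counts for Ensembl genes, with no row for unassigned reads. A deposited table of log2 values was not used. The members and all gene lists were chosen with earlier results of these data known.

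The analysis ran in R 4.3.3. The filterByExpr function of edgeR 4.0.16 (minimum count 10, minimum total 15) left 15922 genes. TMM scaling, voom with a prior count of 0.5 and limma 3.58.1 followed, all 3 named in the methods of the study, and group was the only term of the model because no covariate is named there. Benjamini-Hochberg adjustment ran over all of them (threshold 0.05). Alternatives were the edgeR quasi-likelihood test, DESeq2 1.42.0, other filters and scaling, sex, blocks and libraries left out. The script was tested on simulated data. Single genes also had a 2-sided exact permutation test of mean log2 CPM over all 252 assignments, for which 0.00794 is the smallest p. P-values measure the spread between libraries, which may not be separate animals. Correlations had 100000 permutations (scipy 1.17.1).

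Named were all 10 members, of each other list the genes past the threshold or otherwise the 2 with the smallest limma p, the 5 genes most like the members, and Slc2a1. The genes Scgb1a1, Cxcl15, Lyz2, S100g, Relb, the antisense genes D330041H03Rik and Gm15396, and Nkx2-1 were named outside this rule, the last as a fixed comparison. Positions and exon lengths came from GENCODE M21 (GRCm38), and promoters from RefSeq. Depth was 35.3 to 49.8 M counts (M, mega) per library, and every member had at least 4609 counts in each.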

Additional observations from a re-analysis of the deposited data

Results flagged for a closer look

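Among 116 groups of 5 libraries examined, 10 held a library far from the others of its group. The limit used gives about 1 in 20 such groups by chance for normally distributed values, and the values here were on the linear scale, on which the chance rate was not measured. None of the 20 groups of members' levels was among them. Control replicate 2 had the highest total of the controls, 49.8 M counts (M, mega) with the next at 41.4 M, and the highest summed level of proliferation genes, 695 CPM with the next at 407 CPM. This is the library in which 8 members were lowest. Among genes named from the lists, Il33 was at 555 CPM in Glut1KO replicate 5 (next 296 CPM), Krt15 at 10.5 CPM in control replicate 1 (next 2.87 CPM) and at 1.26 CPM in Glut1KO replicate 4 (next 0.725 CPM). Scgb3a2 was at 18.9 CPM in Glut1KO replicate 1 (next 7.50 CPM) and Tmem212 at 14.0 CPM in Glut1KO replicate 4 (next 4.28 CPM). Ccl22 stood at 1.53 CPM in Glut1KO replicate 1 (next 0.675 CPM) and Egfl7 at 24.7 CPM in control replicate 3 (next 14.9 CPM). Uba7, the gene most like the members, was lowest of its group in Glut1KO replicate 5 at 14.9 CPM, with the next at 24.4 CPM.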

How the results depend on the processing

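The count of members past the threshold was 0 under all 20 alternatives run to the limma fit, and their smallest adjusted p was 0.198. The count over all genes was 215 with DESeq2, 3 with sex as a covariate, 1 in male libraries only, 9 for the female Glut1KO libraries against the controls, and 0 to 1 with 1 library left out (1 without control replicate 3). With 1 library left out, the members' median log2 fold change ranged from -0.06 (without control replicate 2) to 0.32 (without Glut1KO replicate 5), and it was -0.0815 with sex as a covariate, -0.0824 in male libraries only and 0.36 for the female Glut1KO libraries against the controls. With 1 library left out, the median pairwise r ranged from 0.392 (without control replicate 2) to 0.729 (without Glut1KO replicate 2).

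Values of single members changed as follows, some in direction, and the cause was not tested. With sex as a covariate the log2 fold change was -0.194 for Sftpc, -0.0341 for Sftpd, -0.0824 for Abca3, -0.0128 for Napsa, -0.0806 for Slc34a2, -0.210 for Lpcat1 and -0.222 for Lamp3. In male libraries only the values were -0.192 for Sftpc, -0.0348 for Sftpd, -0.0832 for Abca3, -0.0137 for Napsa, -0.0816 for Slc34a2, -0.210 for Lpcat1 and -0.223 for Lamp3. For Ctsh the value was -0.0319 with edgeR, -0.0277 with DESeq2 and -0.132 for the female Glut1KO libraries against the controls, whereas it was 0.292 with sex as a covariate and 0.291 in male libraries only. With 1 library left out, values ran from -0.64 to -0.0473 for Sftpa1, from 0.23 to 0.53 for Sftpb, from -0.12 to 0.50 for Sftpc, from 0.0327 to 0.36 for Sftpd, from 0.29 to 0.54 for Abca3, from -0.0639 to 0.94 for Napsa, from -0.0755 to 0.19 for Slc34a2, from -0.0494 to 0.19 for Lpcat1, from -0.15 to 0.47 for Lamp3 and from -0.16 to 0.21 for Ctsh. Replicate numbers are not stated to pair the samples, and deviations of libraries with the same number had correlations of -0.13 to 0.20. With the replicate block the count of genes was 0, the count of members 0 and the members' median log2 fold change 0.23.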

Other observations

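Lists of cell type markers gave 0 genes past the limma adjusted threshold. Of 14 tested macrophage markers 12 had higher fitted means in Glut1KO libraries, 10 of them at an unadjusted p under 0.05 (7.68% of all genes tested in either direction), and the leading ones were Ptprc (2.76 ± 0.45 CPM in controls and 7.92 ± 2.19 CPM in Glut1KO libraries, SD, n = 5 each; limma adjusted p = 0.230) and Ear2 (0.187 ± 0.083 and 0.823 ± 0.265 CPM; limma adjusted p = 0.230). Their summed level, of which Lyz2 made up at least 83.5%, was 1142 to 11527 CPM in controls and 2224 to 8129 CPM in Glut1KO libraries. All 10 ciliated cell markers had lower fitted means in Glut1KO libraries (0 at an unadjusted p under 0.05), with sums of 8.11 to 176 CPM and 10.2 to 29.6 CPM. The leading ones were Foxj1 (21.9 ± 20.2 and 3.20 ± 2.31 CPM; limma adjusted p = 0.658) and Tmem212 (10.6 ± 9.1 and 5.11 ± 5.15 CPM; limma adjusted p = 0.744). Of 13 tested club cell markers 10 were lower and 3 higher, with sums of 2356 to 13211 CPM and 3537 to 10229 CPM. They were led by Krt15 (3.75 ± 3.81 and 0.779 ± 0.280 CPM; limma adjusted p = 0.449) and Scgb3a2 (32.6 ± 35.1 and 9.17 ± 5.47 CPM; limma adjusted p = 0.707).

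Of the 12 AT1 cell markers 6 were higher and 6 lower, led by Sema3a (20.2 ± 7.6 and 10.4 ± 6.5 CPM; limma adjusted p = 0.686) and Akap5 (65.4 ± 19.9 and 98.5 ± 45.6 CPM; limma adjusted p = 0.748). All 12 endothelial markers had higher fitted means (median log2 fold change 0.65), with Cldn5 (3.64 ± 1.14 and 5.98 ± 2.26 CPM; limma adjusted p = 0.643) and Egfl7 (15.7 ± 5.1 and 21.3 ± 6.1 CPM; limma adjusted p = 0.713) in the lead. Of 20 further AT2 markers 16 were higher and 4 lower (median 0.35), led by Il33 (201 ± 54 and 306 ± 146 CPM; limma adjusted p = 0.688) and Lyz1 (188 ± 279 and 520 ± 433 CPM; limma adjusted p = 0.716). Of 12 proliferation genes 10 were lower (Ccnb2 with a limma adjusted p of 0.763, Cdk1 of 0.80), of 9 tested fibroblast markers 7 were lower (Inmt 0.830, Dcn 0.854), and of 8 epithelial markers 6 were lower (Cldn4 0.449, Cldn3 0.810). Of 6 tested dendritic cell markers 3 were higher and 3 lower (Ccl22 0.612, Ccl17 0.621).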
